A study of Arabidopsis thaliana with 6 samples.

Results

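The genes described here form a set of nuclear transcripts that were lower in open Arabidopsis flowers than in both the closed buds before them and the young siliques after them. The members were chosen by their signals on all 6 arrays. A probe set (the group of oligonucleotides on the array that reads 1 transcript) was a member if its lowest bud or silique array was at least 1.5 times its higher flower array. Signals under 25 were first set to 25, so that differences among very dim readings did not count. Of 22746 probe sets, 110 met this ratio. Removed were 9 of plastid-encoded or mitochondria-encoded genes and 2 set aside by name (SWEET7 and ACLB-1), which left 99 members, or 0.435% of the array. The mirror image of the rule, flowers above both other stages, held 407 nuclear probe sets. A member had to pass on every array, so leaving out 1 array could only add probe sets: the count was 176 without buds 1, 195 without flowers 1, 245 without flowers 2 and 175 without siliques 2.

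The 6 samples came from 6-week-old Arabidopsis thaliana of the accession Landsberg erecta, grown with 16 h of light at 21 °C, 8 h of darkness at the same temperature and 70% humidity. No transgene, mutant or treatment was part of the design, and every sample was a pool of tissue from 12 plants. The 3 groups of 2 arrays were whole flower buds still closed and close to pollination, whole flowers that were open and pollinated, and siliques taken 2 d after pollination, from which the withering floral organs had been left off. The entire experiment was run 2 times, and replicate 1 and replicate 2 below are these runs. Sepals, petals and stamens were therefore present in buds and flowers and not in siliques, and in such bulk tissue fewer cells of a type and less RNA per cell cannot be told apart.

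The growing surface of a plant organ is sealed by a cuticle, a polyester of cutin with waxes, which enzymes of the GDSL lipase family help to polymerise outside the cell. Beneath it, the wall of an expanding cell is loosened and rebuilt by enzymes that cut or decorate pectin, glucans and hemicelluloses, among them pectate lyases, glycosyl hydrolases and acetyltransferases. Several members belong to these families. The members are grouped by role, a grouping made after their values were seen. For loci without a symbol the family named here is general knowledge of Arabidopsis and not an entry of the supplied gene tables.

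The supplied tables named a single gene for 41 of the 99 members (41.4%, against 59.4% of all probe sets). Of these 41, 7 had a symbol (17.1%, against 11.7% of all single-gene probe sets). The grouping by role covers identified genes only. Several genes were listed for 3 members and no gene for 55. The 41 genes lay on all 5 nuclear chromosomes (14, 9, 8, 4 and 6 on chromosomes 1 to 5), and no 2 of them were direct neighbours among protein-coding genes in the RefSeq order for TAIR10.1. Values below are MAS5 signals, a linear brightness, with 2 arrays per stage. The depth of a dip is the geometric mean of the 4 bud and silique signals over that of the 2 flower signals. These values chose the members, so the dip is described without a test.

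The tissues carried the markers of their stage. The tapetum gene AT5G07230 read 553 and 1199 in buds and at most 2.84 elsewhere, SWEET9 of the nectary read 1272 and 1539 in flowers and at most 47.0 elsewhere, and BAN of the seed coat read 665 and 658 in siliques and at most 35.9 elsewhere. Of the 16 marker loci, 9 had a probe set of their own. The 3 tapetum genes with a probe set were highest in buds, and the 2 nectary and flower genes were highest in flowers. Of the 3 for seed coat and endosperm, BAN and DFR were highest in siliques, and AGL62 stayed at 12.2 or less on every array. AGL66, the 1 pollen gene, read 126 and 63.3 in buds, 26.6 and 13.8 in flowers and 2.36 and 9.35 in siliques. Over all probe sets the median signal was 48.1 and 48.3 in buds, 45.4 and 43.8 in flowers and 41.5 and 41.6 in siliques. As a sign of RNA quality, probe sets at the 3' and the 5' end of the GAPDH transcript were compared: 3' over 5' was 0.967 in flowers 1 and 1.02 in flowers 2, and lay from 0.835 to 0.919 in buds and siliques. This ratio was thus highest where the members were lowest. The same quotient for actin, 1.34 and 1.41 in flowers, overlapped the 1.19 to 1.38 of the other stages. For ubiquitin it was 1.304 and 1.303 in flowers, inside the range of 1.17 to 1.51 elsewhere. The part of RNA quality in the dip was not tested.

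The median depth of the 99 members was 2.25-fold, with a range from 1.70 to 9.61. Depth exceeded 4-fold for 10 members, lay between 2-fold and 4-fold for 58 and was under 2-fold for 31. On the flower arrays 20 members had at least 1 reading under the floor of 25, which makes their depth a lower bound, and 9 of these were under it on both. In total signal the members made up 0.996% and 1.16% of the bud arrays, 0.395% and 0.428% of the flower arrays and 1.11% and 0.953% of the silique arrays. Within replicate 1 alone the median depth was 2.36-fold and within replicate 2 it was 2.23-fold. The rule required a dip of at least 1.5-fold in each run, so these values are not an independent repeat.

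**Figure D1:**
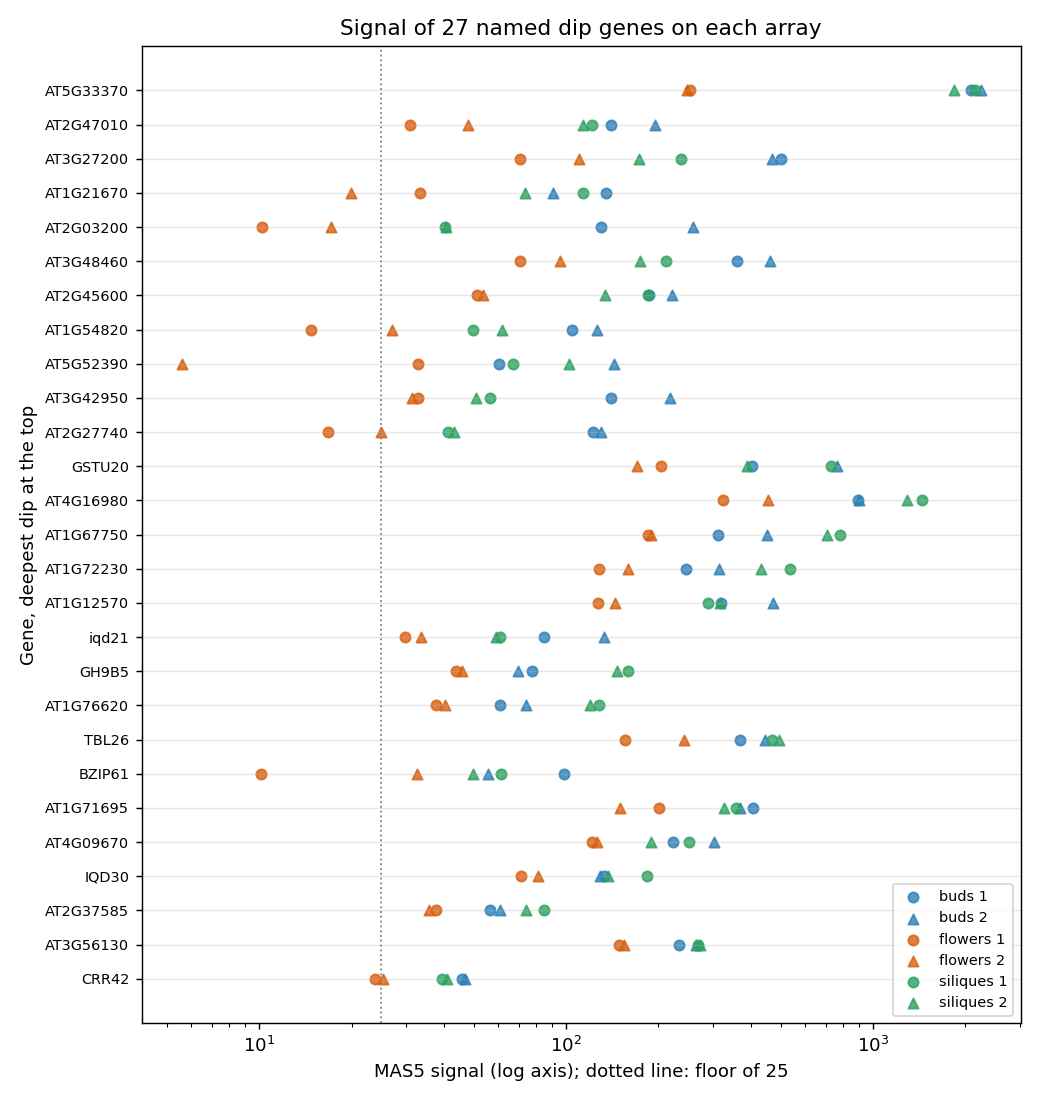
Signal of the 27 genes named by rule on each of the 6 arrays (log axis), with the deepest dip at the top; circles are replicate 1 and triangles replicate 2. Every flower reading lies left of the bud and silique readings of its gene, as the rule requires, and the siliques stand left of the buds for AT3G42950 and AT2G27740 but right of them for GH9B5 and AT1G67750.

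The deepest dip of an identified gene was that of AT5G33370, a GDSL lipase of the cutin synthase group. It read 2092 and 2239 in buds, 254 and 247 in flowers and 2147 and 1833 in siliques. It was thus among the brightest members at both outer stages, the 2 silique readings bracketed buds 1, and the dip was 8.28-fold (8.36 in replicate 1 and 8.20 in replicate 2). From buds to siliques its log2 change was −0.13 ± 0.14 (SE; adjusted p = 0.590 by limma), so no difference between the outer stages was detected. The size and the sign of the change depended on the scaling. It was −0.465 after quantile normalization (adjusted p = 0.0935 by limma) and 0.088 with the arrays scaled to equal medians.

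Another pair of GDSL lipase genes were members. AT3G48460 read 361 and 463 in buds, 70.9 and 95.9 in flowers and 212 and 174 in siliques, a 3.40-fold dip. Its siliques lay below its buds (log2 change −1.05 ± 0.21, adjusted p = 0.0192), a call lost without buds 2 (0.0627), siliques 1 (0.0592) or siliques 2 (0.110). AT3G53100 was dimmer, at 59.6 and 66.7, then 24.5 and 33.5, then 68.8 and 65.2, a dip of at least 2.25-fold with the outer stages overlapping. Of the 3 lipase genes, 1 was lower in siliques than in buds and 2 did not pass (8.52% of all tested probe sets were called lower). AT1G12570, an oxidoreductase of the family of HOTHEAD, which keeps floral organs from fusing, read 320.0 and 472 in buds, 127 and 145 in flowers and 290.0 and 317 in siliques (2.53-fold). Both silique readings lay just below buds 1 and further below buds 2, and the log2 change between them did not pass (−0.35 ± 0.21, adjusted p = 0.295). AT3G56130, a protein with a biotin attachment domain that restrains plastid acetyl-CoA carboxylase, the first enzyme of fatty acid synthesis, had one of the shallowest dips: 234 and 265, then 149 and 154, then 269 and 274, or 1.71-fold.

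Next are 8 identified members grouped as genes of wall polysaccharides and wall proteins, with depths from 1.71-fold to 2.99-fold. The share of such genes on the whole array was not counted. From buds to siliques 2 were called higher, 1 lower and 5 not, where 7.03% of all tested probe sets were called higher and 8.52% lower. AT4G16980, an arabinogalactan protein gene, was the brightest of them, at 896 and 897 in buds, 324 and 456 in flowers and 1444 and 1289 in siliques. Its silique readings stood above the bud readings without passing the test (log2 change 0.60 ± 0.19, adjusted p = 0.0802).

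AT1G67750, a pectate lyase gene, read 312 and 450.2 in buds, 185 and 189.6 in flowers and 782 and 709 in siliques. Its siliques were higher than its buds by 0.97 ± 0.20 on the log2 scale (adjusted p = 0.0207). GH9B5, an endoglucanase of glycosyl hydrolase family 9, read 77.4 and 69.7, then 43.8 and 46.0, then 159.7 and 147, a rise of 0.97 ± 0.15 (adjusted p = 0.00725). In both genes the order was flowers, buds, siliques, with no overlap between stages. The call for AT1G67750 was lost without buds 1 (adjusted p = 0.0604), siliques 1 (0.108) or siliques 2 (0.0805), and that for GH9B5 without siliques 1 (0.0572). AT3G42950, of the pectin lyase fold, had the opposite profile. It read 139.6 and 218 in buds, 33.0 and 31.6 in flowers and 56.5 and 50.9 in siliques, and the log2 change between buds and siliques was −1.54 ± 0.22 (adjusted p = 0.00611).

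The other wall genes changed less between the outer stages. TBL26, of a family of polysaccharide O-acetyltransferases, read 367 and 443 in buds, 155 and 242 in flowers and 468 and 496 in siliques. Its flower replicates differed more than those of most members, and the depth was 2.67-fold in replicate 1 and 1.94-fold in replicate 2. AT2G37585, listed as GlcAT14C, a glucuronosyltransferase that acts on arabinogalactan, read 56.5 and 61.0, then 37.6 and 35.7, then 84.9 and 74.0. AT2G45750 and AT1G33170, a pair of methyltransferases of the type linked to pectin, were named after their values were seen: their dips were 2.56-fold and 1.71-fold, and their log2 changes from buds to siliques were −0.42 ± 0.18 and 0.16 ± 0.14.

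The 2 cupredoxin genes among the identified members encode small copper proteins of the cell surface. Both were called between the outer stages, in opposite directions, where 7.03% of all tested probe sets were called higher and 8.52% lower. How many cupredoxin genes the array holds was not counted. AT3G27200 read 499.7 and 468 in buds, 70.6 and 110.4 in flowers and 236 and 173 in siliques, a log2 change of −1.22 ± 0.24 (adjusted p = 0.0189). AT1G72230 read 247 and 315, then 128 and 159, then 538 and 431, a change of 0.77 ± 0.20 (adjusted p = 0.0466). With single arrays left out, the adjusted p of AT3G27200 rose as far as 0.104 (without siliques 2; also lost without buds 1, 0.0869, and buds 2, 0.0506). That of AT1G72230 passed only without buds 2 and rose as far as 0.196 (without siliques 1). The aspartyl protease gene AT2G03200 was the member with the largest fall from buds to siliques among identified genes. It read 129.7 and 258 in buds, 10.2 and 17.2 in flowers and 40.4 and 40.5 in siliques (−1.94 ± 0.33, adjusted p = 0.0108). Both flower readings were under the floor, so its dip was at least 3.44-fold, made of at least 7.32-fold from buds and at least 1.62-fold from siliques, and the call between these was lost without siliques 1 (adjusted p = 0.0627) or siliques 2 (0.0639). AT1G25510, the other aspartyl protease gene and chosen after its values were seen, read 138 and 138, then 52.1 and 55.2, then 109 and 103, with no change passing the test (−0.35 ± 0.14, adjusted p = 0.138).

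The IQ-domain genes iqd21 and IQD30 encode calmodulin-binding proteins. For iqd21 the readings were 85.0 and 133 in buds, 29.8 and 33.7 in flowers and 61.1 and 59.0 in siliques, and for IQD30 they were 133 and 129, then 71.3 and 81.1, then 184 and 137. The siliques of iqd21 stood below its buds and those of IQD30 above, but neither change passed (adjusted p = 0.0747 and 0.347). BZIP61, a bZIP transcription factor, read 98.6 and 55.7, then 10.1 and 32.7, then 61.5 and 49.9. Its replicates were far apart in buds and in flowers, and the floored depth was at least 3.11-fold in replicate 1 and 1.61-fold in replicate 2. AT1G54820, a protein kinase gene, read 105 and 126, then 14.8 and 27.0, then 49.8 and 61.7; its fall from buds to siliques was the call nearest the threshold (−0.93 ± 0.25, adjusted p = 0.0491) and was lost without any 1 bud or silique array (0.116 to 0.189).

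GSTU20, a tau-class glutathione transferase, read 404 and 763 in buds, 204 and 170.3 in flowers and 731 and 387 in siliques. The outer stages overlapped fully, with a log2 change of −0.06 ± 0.38 (adjusted p = 0.931), and the flower readings were close to each other. AT1G71695, a class III peroxidase, was a flatter member at 406 and 369.5, then 201 and 150.2, then 357 and 326 (2.09-fold). CRR42, needed to build the chloroplast NDH complex, was the dimmest named gene, at 45.8 and 46.7, then 23.9 and 25.3, then 39.4 and 41.0. Its signal never reached 50, so it was not tested.

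Among the remaining named genes, AT2G47010 read 140.5 and 194 in buds, 31.0 and 48.1 in flowers and 121 and 113 in siliques (3.60-fold). AT2G45600, an alpha/beta hydrolase gene, read 186 and 221, then 51.3 and 53.8, then 184 and 134 (3.39-fold). Both came back most of the way in siliques, and neither change between the outer stages passed (adjusted p = 0.216 and 0.254). AT1G21670 (135 and 90.4, 33.4 and 19.9, 114 and 73.5) and AT5G52390 (60.3 and 143, 33.0 and 5.60, 67.4 and 102) had replicates far apart, and the depth of AT5G52390 was 1.93-fold in replicate 1 and at least 4.84-fold in replicate 2. The last 3 genes differed in how far they came back. AT4G09670 read 223 and 303, then 122 and 126, then 251 and 189 (1.92-fold). AT2G27740 read 122 and 130.3, then 16.7 and 24.9, then 41.4 and 43.1, and fell between the outer stages by 1.38 ± 0.20 on the log2 scale (adjusted p = 0.00544). AT1G76620 had the reverse profile, at 61.0 and 74.1, then 37.7 and 40.5, then 128 and 119.8, a rise of 0.79 ± 0.16 (adjusted p = 0.0217) that was lost without buds 1 (0.101), siliques 1 (0.113) or siliques 2 (0.0908).

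Several of the deepest dips belonged to probe sets without a listed gene, which are given by their array identifier and were chosen after their values were seen. Probe set 260241_at had the greatest depth of all members, at least 9.61-fold, with 260.1 and 357 in buds, 15.5 and 28.1 in flowers and 243 and 186 in siliques. Probe set 264007_at read 418 and 638, then 121 and 192, then 1758 and 1366, and had the largest rise from buds to siliques (1.57 ± 0.29, adjusted p = 0.0152). In 266319_s_at the order was the reverse: 394 and 509, then 37.0 and 44.2, then 112 and 116, a fall of 1.89 ± 0.17 (adjusted p = 0.000932).

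At the edge of the rule, the 3 members nearest the limit were AT2G37585, 265120_at and 259429_at, with ratios of 1.5003, 1.5003 and 1.5010. Just outside were AT5G16030, AT3G06035 and 246915_at, at 1.4973, 1.4920 and 1.4903. AT3G06035 read 308 and 334 in buds, 191 and 207 in flowers and 593 and 439 in siliques, a depth of 2.04-fold that is larger than that of many members. Membership near the limit thus hung on single arrays, and 259429_at, at 3.54-fold, was inside by the reading of siliques 2 (129) over flowers 2 (85.7).

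The comparison of siliques with buds was not the contrast of the rule, and asked whether the members differed between these 2 stages. The rule did use the same arrays. It required both stages to read at least 1.5 times the flowers, so some return in siliques was fixed in advance. The spread in the fit also came in part from the flower arrays that chose the members. Of the 99 members, 97 reached a signal of 50 on at least 2 arrays and were tested. In limma's fit over 12075 probe sets, 6 of them were higher in siliques, 12 were lower and 79 did not pass at an adjusted p under 0.05; 28 had an unadjusted p under 0.05. The 18 called are 18.6% of those tested, against 15.6% of all probe sets (7.03% called higher and 8.52% lower), so the share called was near the background. The median log2 change of the members was −0.01, against −0.0003 over all probe sets tested. A change of less than 0.5 on the log2 scale was found for 71 of the 97 (73.2%, against 69.2% of all). Both silique arrays lay above both bud arrays for 29 members (29.9%, background 30.5%) and below them for 27 (27.8%, background 30.5%).

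These shares, too, lay near those of the whole array. The other 26 tested members changed by 0.5 or more, of which 8 were not called, so a member that was not called is not shown to be level. Among the 12 called lower in siliques, 9 had both flower readings above the floor, and their flowers lay 3.91-fold to 11.1-fold below buds and 1.66-fold to 4.44-fold below siliques. In the other 3 (AT2G03200, AT1G54820 and AT2G27740) these folds are lower bounds. Of the 6 called higher, 5 were above the floor, with flowers 1.64-fold to 3.40-fold below buds and 3.17-fold to 10.2-fold below siliques, and the folds of 264577_at are lower bounds. The identified genes called lower were AT2G03200, AT3G42950, AT2G27740, AT3G27200, AT3G48460 and AT1G54820, and those called higher AT1G67750, GH9B5, AT1G76620 and AT1G72230. Leaving out 1 bud or silique array left that stage with 1 array. Fewer probe sets were then called, both among the members and over the whole array. A call lost in this way need not have hung on that array. For AT2G03200 the log2 change was −1.94 without siliques 1 and −1.94 without siliques 2. Of the 18 calls, 4 held without any 1 array: AT3G42950, AT2G27740, 254333_at and 266319_s_at. With the arrays scaled to equal medians, 13 members were higher and 11 lower, where 23.5% of all probe sets tested were called. That scaling raised the median change of all probe sets tested to 0.20.

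**Figure D2:**
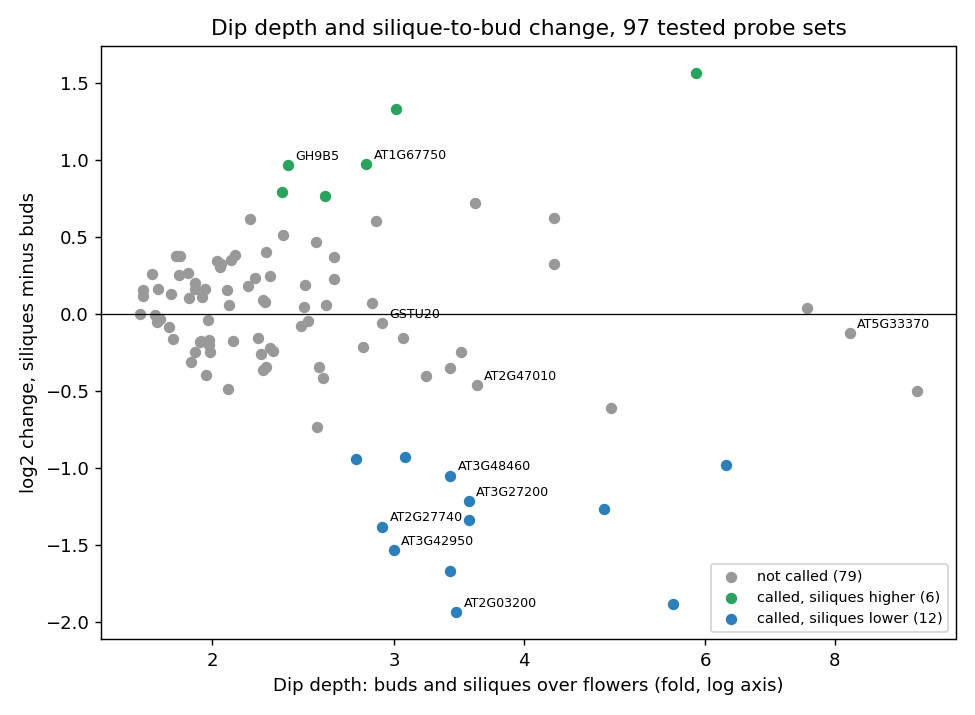
Depth of the dip (fold of buds and siliques over flowers, log axis) against the log2 change from buds to siliques for the 97 tested members. The 12 called lower (blue) and the 6 called higher (green) have changes of 0.77 or more in size, and AT5G33370, at 8.28-fold, lies near 0.

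The levels of the members also differed between the runs. Buds 2 read above buds 1 in 75 of the 99 members, flowers 2 above flowers 1 in 62 and siliques 2 below siliques 1 in 73. Among tested members these were 75.3%, 62.9% and 74.2%, against 52.6%, 49.8% and 52.3% of all tested probe sets. The median ratio of buds 2 to buds 1 was 1.14 in the members and 1.01 in all tested probe sets. Markers differed between the bud pools too. In buds 1 and buds 2 the tapetum genes AT5G07230, SHT and AMS read 553 and 1199, 195 and 463, and 16.9 and 56.5. The pollen gene AGL66 read 126 and 63.3. The part of this difference between bud pools in the member values was not tested. The median log2 change from buds to siliques was 0.15 in replicate 1 and −0.13 in replicate 2, where all probe sets tested gave 0.017 and −0.0075.

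For 2 member genes the array held a second probe set, which the rule had not used to choose them. The second probe set of AT4G20760 read 48.0 and 48.4 in buds, 47.2 and 31.6 in flowers and 63.0 and 50.9 in siliques. Flowers were lowest there as well, but flowers 1 lay within 1 unit of signal of buds 1 and the depth was 1.35-fold, against 1.84-fold on the member probe set (92.9 and 98.8, 59.5 and 60.2, 143 and 113). For AT4G16980 the second probe set stayed between 1.05 and 14.6 on all arrays, against 324 to 1444 on the first, and so gave no reading of the dip.

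Relatives of the members with a symbol show how far the dip was shared within a family. The families were picked because they hold a member, whose flowers are lowest by the rule, so members are left out of the counts. The counts are set beside the background over the 12075 probe sets tested, of which 14.0% had both flower arrays below all other arrays and 13.2% had both above. Of the 4 tau-class glutathione transferases tested beside GSTU20, flowers were lowest in 0 and highest in 2. GSTU18 read 238 and 171 in buds, 379.6 and 574 in flowers and 151 and 194 in siliques. GSTU16 read 34.5 and 25.1, then 87.0 and 68.7, then 21.7 and 38.6. Genes of 1 family thus had opposite profiles on the same arrays.

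In glycosyl hydrolase family 9, flowers were lowest in 2 and highest in 2 of the 8 tested probe sets beside GH9B5. GH9B7 came close to the rule, with 326 and 299 in buds, 206 and 209.6 in flowers and 566 and 519 in siliques, which resembles the order of stages in GH9B5 at a higher signal. GH9A4 read 98.6 and 52.1, then 212 and 202, then 34.8 and 65.4, a peak in flowers. Among the 8 IQ-domain genes tested beside iqd21 and IQD30, flowers were lowest in 3 and highest in 0. The 3 were IQD31 (338 and 389, 277 and 249, 444 and 418), iqd32 and iqd33. In the trichome birefringence-like family, flowers were lowest in 3 and highest in 0 of the 13 tested probe sets beside TBL26. Of the 11 bZIP probe sets tested beside BZIP61, flowers were lowest in 2 and highest in 1. The 4 tested CRR probe sets share that name as a symbol or synonym and are not 1 gene family. Among them flowers were lowest in 1 and highest in 1. These counts rest on few probe sets. BZIP34, a close relative of BZIP61, was too dim to be tested and read 43.6 and 46.4, then 18.6 and 13.9, then 36.5 and 36.4, just outside the rule at a ratio of 1.46.

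**Figure D3:**
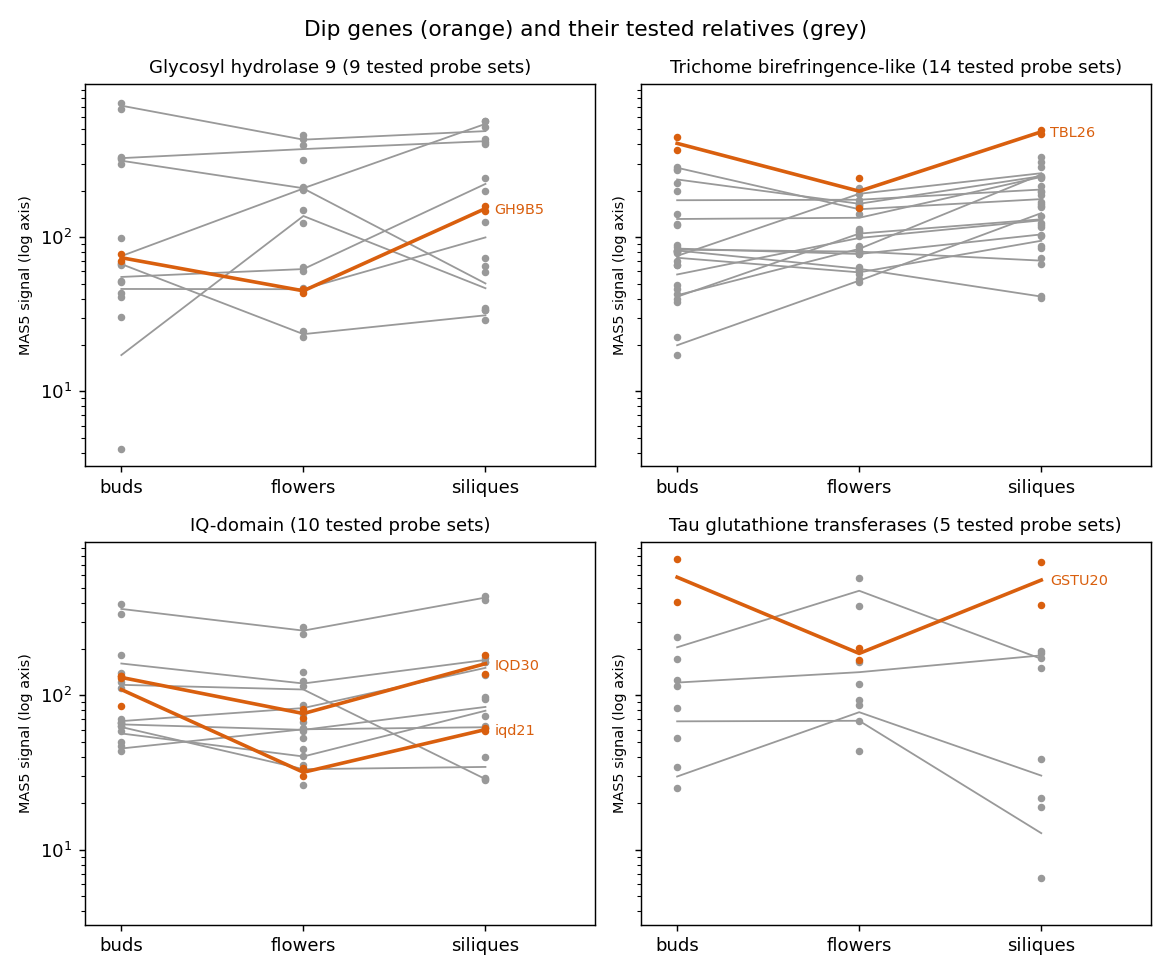
Signal (log axis) in buds, flowers and siliques for the tested probe sets of 4 gene families; points are single arrays, lines join the means of 2 arrays, and members are orange. GSTU20 dips where GSTU16 and GSTU18 peak, and GH9B5, TBL26, iqd21 and IQD30 are the members of their families.

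Of the gene lists by function, which matched symbols, synonyms or loci, only that of defence and stress held a member, GSTU20. The list of cell wall words took in 26 tested genes and none of the 8 wall genes described above, GH9B5 and TBL26 included. In those 26, flowers were lowest in 5 and highest in 6, beside 14.0% and 13.2% over all tested probe sets. That background, on the values as deposited, also stands beside the lists below, which are only some of those run. PME61, a pectin methylesterase, was just outside the rule, with 61.0 and 48.7 in buds, 33.0 and 29.0 in flowers and 205 and 155 in siliques. Of 14 tested genes of photosystems, thylakoids and chlorophyll, flowers were lowest in 5 and highest in 0, again with 0 members (lowest in 4 with equal medians and 8 after quantile normalization). The nearest to the rule was LHCB4.3 at 747 and 888, then 457 and 507, then 952 and 737. From buds to siliques, 4 of the cell wall genes were higher and 2 lower, of 26, and 3 of 14 photosystem genes were higher, beside 7.03% called higher and 8.52% lower over all tested probe sets. The list of fatty acid and cuticle genes had 5 of 27 loci on probe sets of their own: flowers were lowest in 2 and highest in 1 (0 after quantile normalization). Mitosis and DNA replication had 4 tested genes, with flowers lowest in 0 and highest in 0.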

How the data were processed

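RNA of 6 pooled tissue samples was hybridised to Affymetrix ATH1 arrays. The deposited values are MAS5 signal intensity per probe set, per the submitters' processing notes, without a version; their 2% trimmed means all lie near 100.01. Precision is limited by the number of arrays. Probe sets were named from the platform annotation and the RefSeq gene table for TAIR10.1; 64 control probe sets were left out, and 0 value columns belonged to other samples. Promoter and protein sequences were not used here, and no motif was searched.

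Siliques were compared with buds in limma 3.58.1 (R 4.3.3): a linear model with empirical Bayes moderation and a trend in intensity, on log2(signal + 10), all 6 arrays, 3 groups, no replicate term, for probe sets with a signal of 50 on at least 2 arrays, with Benjamini-Hochberg adjustment over 12075 and calls at 0.05. Residual degrees of freedom were 3 and the median prior 3.61. The labels say the whole experiment was done 2 times, so the replicate number marks a shared run; correlations of the replicate differences were 0.34 (buds, flowers), −0.014 (buds, siliques) and 0.17 (flowers, siliques). The 2 runs are separate biological samples of each stage per the labels.

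The fit was tested on simulated data (10 draws, 200 of 12075 probe sets given a change) and recovered 57.1% of 2-fold and 97.5% of 4-fold changes from buds to siliques, and 7.78% of calls were false. The simulated noise was independent between arrays, with no shared run and no difference in flowers. In the real data 15.6% of probe sets were called, a larger share than was changed here, so these rates may not hold there.

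Single-gene members were named if they were among the 12 deepest or 12 brightest, the 6 largest called rises or falls, the first 4 of a gene list or the 3 nearest the ratio, or if they carried a symbol; this gave 27 genes. Gene lists matched symbols and synonyms, or loci. The members, lists and role groups were chosen with earlier results of these data known. Figures were drawn with matplotlib 3.10.9.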

Additional observations from a re-analysis of the deposited data

How the results depend on the processing

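The number of probe sets meeting the rule was 99; it was 266 at a ratio of 1.3 and 19 at a ratio of 2, and with 1 array left out it ran from 118 to 245, each of which held all 99. With a floor of 10 it was 136, with a floor of 50 71, with arrays scaled to equal medians 88 (74 shared) and with quantile normalization 95 (84 shared). Members called higher in siliques than in buds numbered 6, 13 with equal medians, and 0 to 7 with 1 array left out; those called lower numbered 12, and 5 to 12 with 1 array left out. With the replicate number as a block 8 were higher and 12 lower, and all 18 calls were kept. Calls also rose over all probe sets tested, to 2427 (20.1%) from 1878 (15.6%). The block ended no call. The median log2 change ran from −0.05 to 0.12 with 1 array left out, and was −0.04 with the stricter filter of 100 and 0.19 with equal medians. Over all probe sets tested, 1878 were called, 2837 with equal medians, and 990 without buds 1, 871 without siliques 1 and 874 without siliques 2.

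Among named genes, AT3G27200 was not past the test without buds 1, buds 2 or siliques 2 (adjusted p = 0.0506 to 0.104), AT3G48460 without buds 2 or either silique array (0.0592 to 0.110), AT2G03200 without either silique array (0.0627 and 0.0639), AT1G67750 and AT1G76620 without buds 1 or either silique array (0.0604 to 0.113) and GH9B5 without siliques 1 (0.0572). AT1G54820 lost its call in 9 settings (0.0695 to 0.189) and AT1G72230 in 9 (0.0542 to 0.196). AT4G16980 passed with equal medians (0.0313) and iqd21 without buds 1 (0.0394). No direction of a called gene was reversed in the alternatives run. The depths of the named genes stayed within 0.693 and 1.29 times the values given. Family counts of lowest flower readings, members included, were the same for GH9, IQ-domain and tau-class genes with equal medians or quantile normalization, and moved for bZIP genes from 3 to 2 with either and for trichome birefringence-like genes from 4 to 3 with quantile normalization. The causes were not tested.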
